A study of Mus musculus with 21 samples.

Results

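The genes described here are 41 genes of autophagy and of its lysosomal end, picked by symbol from the 35266 genes in the deposited tables. They comprise 5 genes of the ULK initiation complex, 6 of the PI3K nucleation complex, 6 that supply membrane or bind PI3P, 10 of the conjugation machinery, the 5 ATG8 genes measured, 3 cargo receptors, 2 mitophagy receptors, 2 transcription factors and 2 lysosomal membrane proteins. Each library held RNA of fluorescent neurons picked by hand from the arcuate nucleus of a single male mouse on the C57BL/6J background, aged postnatal day 46 to 56. AGRP neurons came from NPY-hrGFP mice, 5 fed and 6 food-deprived (FD), and POMC neurons from Pomc-GFP mice, 5 fed and 5 FD. All mice were moved to a fresh cage a day before the experiment, fed mice with food ad libitum and FD mice with water alone for 24 hours. Both cell types were identified by the reporter that the Npy or Pomc transgene drives, so the cells are those with visible fluorescence. The comparisons ask how a day without food changed these genes in neurons that promote feeding (AGRP) and in neurons that restrain it (POMC).

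In autophagy a double membrane closes around cytoplasm and delivers it to the lysosome, where hydrolases break it down. Nutrient shortage relieves the mTORC1 block on the ULK kinase complex, which activates the VPS34 lipid kinase complex. The PI3P that this kinase makes recruits WIPI proteins, and 2 ubiquitin-like conjugation systems then attach ATG8 proteins to the growing membrane, where they bind cargo receptors. TFEB and TFE3 are basic helix-loop-helix factors that enter the nucleus when mTORC1 is off and turn on lysosomal and autophagy genes. Much of this control acts on proteins, and the libraries measure messenger RNA alone.

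Libraries held 9822298 to 37663979 gene counts (median 19189780) from 44 to 214 sorted cells, and 3 counts, taken as the floor, were worth 0.0797 to 0.305 CPM (counts scaled to library size). The RNA was amplified without molecular identifiers, so this floor covers counting error alone. Normalized CPM are such values after TMM scaling, a level relative to the rest of the library. In such pools fewer cells expressing a gene cannot be told apart from less of its RNA per cell. The cell types carried their own markers, with 12064 to 68921 summed TPM (transcripts scaled to length and library) of Agrp and Npy in AGRP libraries against 5.45 to 226 in POMC libraries. The summed TPM of 3 neuronal markers (Snap25, Rbfox3 and Syt1) lay between 2146 and 2528 in fed AGRP libraries. In FD AGRP libraries this sum lay between 2872 and 4847, and the part of this shift in the results was not tested. The study reports higher Snap25 in AGRP neurons of FD mice, so the sum is not a fixed measure of neuronal content. The 18 markers of astrocytes, oligodendrocytes, microglia, endothelial cells and tanycytes summed to 6.30 to 30.9 TPM in fed and 9.46 to 26.7 TPM in FD AGRP libraries, which overlapped, but to 7.20 to 11.4 TPM in fed and 11.6 to 28.8 TPM in FD POMC libraries, which did not. Of the 10 of them that could be tested, 1 (Aldh1l1, an astrocyte enzyme) was higher in FD than in fed AGRP libraries (q = 0.0284), and its part in the results was not tested either. The labels give a spike-in volume for each library, from which 3 sets were formed here (1 µl, 10 µl and volumes in proportion to the cell number). Among POMC libraries the 10 µl set held FD mice alone and the cell-number set fed mice alone. FD AGRP replicate 2, with 1 µl for 50 cells, meets the rule of both the 1 µl and the cell-number set. It was placed in the latter, and ratios within sets are given with it in either.

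Of the 41 genes, 40 passed the filter of more than 1 CPM in at least 3 libraries and were tested, and only Tfeb did not. Gabarapl1, which encodes an ATG8 protein abundant in neurons, was the highest, with group means between 821 and 884 TPM and no library under 642 TPM. Lamp1 (301 to 513 TPM over libraries), Gabarap (189 to 533 TPM) and Sqstm1 (251 to 543 TPM) followed, with ranges that overlapped one another but not that of Gabarapl1. Map1lc3a, which encodes an LC3 protein, came next with 86.9 to 268 TPM. In all, 35 genes had a mean over 10 TPM in every group and 6 had one over 100 TPM in every group. The conjugation enzymes ran from Atg3, which attaches ATG8 proteins to lipid (mean of all libraries 117 TPM), down to the ATG8 proteases Atg4d (6.998 TPM) and Atg4a (5.90 TPM). Neighbours in this order mostly overlapped between libraries.

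The 2 transcription factors differed in level. Tfe3 had a mean of 35.3 TPM over all libraries and was counted in every library (182 to 1500 counts). Tfeb had 16, 8, 0, 24 and 0 counts in the fed AGRP libraries, 0 to 8 counts (median 0) in the FD AGRP libraries, 1 count in 1 fed POMC library and 9 counts in 1 FD POMC library, with 0 in the other POMC libraries. A count of 0 allows a level of up to the floor of 3 counts given above.

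**Figure D1:**
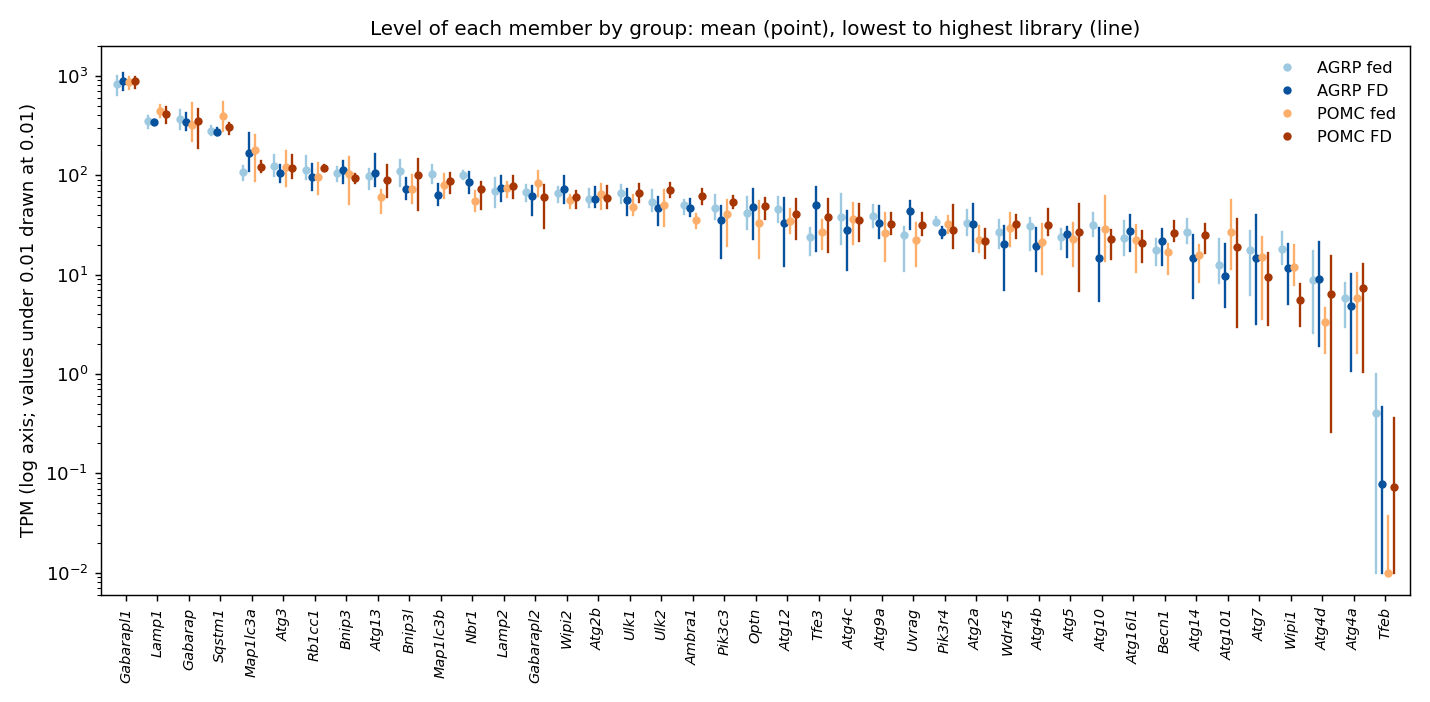
Level of each of the 41 genes in TPM on a log axis, ordered by the mean over all libraries, with points for group means and lines from the lowest to the highest library of a group. Gabarapl1 stands above all others (lowest library 642 TPM), 35 genes have a mean over 10 TPM in every group, and Tfeb lies near 0.

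Within the ATG8 family Gabarapl1 made up between 55.7 ± 2.74% (SD, n = 5, fed AGRP) and 59.0 ± 4.86% (n = 5, FD POMC) of the summed TPM of the 5 genes. Gabarap made up between 20.7% and 25.1% in the group means. Map1lc3a took 7.46 ± 1.34% in fed and 10.96 ± 3.85% in FD AGRP neurons (n = 6), whereas Map1lc3b took 6.99 ± 0.854% and 4.15 ± 0.585%. The GABARAP branch held most ATG8 transcripts in all 4 groups, and both LC3 genes were minor.

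TFE3 and TFEB bind E-box sequences of the form CACGTG and often prefer a T beside it (TCACGTG). RefSeq promoters (build GRCm38.p6, 250 bases before to 50 bases after a start) matched 34 of the 41 genes, all but Rb1cc1, Becn1, Pik3c3, Atg12, Atg16l1, Map1lc3a and Bnip3l. CACGTG, which reads the same on both strands, stood in the promoters of 6 of these 34 genes (17.6%), against 11.3% of the tested genes with a promoter and 8.09% of all genes with one. TCACGTG on either strand, a subset of these matches, stood in 4 of the 34 (Atg14, Atg3, Atg7 and Lamp1, 11.8%, against 6.59% of tested genes). Lamp1, which encodes a heavily glycosylated protein of the lysosomal membrane, carried 4 copies, beginning 61, 45, 28 and 15 bases before its start. Its promoter is printed whole because of this cluster, at chr8:13158911-13159210 on the plus strand, with each CACGTG in capitals.
Lamp1: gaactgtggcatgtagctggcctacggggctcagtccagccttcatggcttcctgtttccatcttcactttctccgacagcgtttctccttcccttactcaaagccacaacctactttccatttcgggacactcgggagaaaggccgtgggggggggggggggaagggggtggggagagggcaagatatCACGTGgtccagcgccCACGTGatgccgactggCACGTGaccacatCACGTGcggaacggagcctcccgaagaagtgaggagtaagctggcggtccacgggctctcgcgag

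The other members with the motif are shown as 30-base windows, 5′ to 3′ on the strand of the gene with CACGTG in capitals, to let the bases beside each copy be compared. Atg3 holds 2 copies, at chr16:45158723-45158752 and chr16:45158746-45158775 on the plus strand, beginning 94 and 71 bases before the start. Atg14 (chr14:47568418-47568447, minus strand) holds its copy across the start, and Atg5 (chr10:44268313-44268342, plus strand), Bnip3 (chr7:138909597-138909626, minus strand) and Atg7 (chr6:114670952-114670981, plus strand) hold theirs 14, 108 and 132 bases before it. The RefSeq start used for Atg7 lies inside the gene as the authors' table places it (chr6:114643096-114860614). Its copy is thus not at the outer start of that gene.
Atg3, first copy: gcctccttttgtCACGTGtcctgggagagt
Atg3, second copy: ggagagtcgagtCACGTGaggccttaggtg
Atg14: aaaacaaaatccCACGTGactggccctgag
Atg5: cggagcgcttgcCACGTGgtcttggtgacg
Bnip3: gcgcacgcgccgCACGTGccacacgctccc
Atg7: catattggtggtCACGTGtgcagtaagtga

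In AGRP neurons, FD mice had higher Tfe3, Uvrag and Map1lc3a than fed mice, and no other gene of the 40 passed the test in either direction. The value q is the adjusted p of edgeR's quasi-likelihood test, by Benjamini-Hochberg over all 16513 genes tested, and q under 0.05 was a call. The 3 calls are 7.50% of the genes described, where 10.3% of all tested genes were called in this comparison, so the share was not above the background. All 3 were higher in FD mice, as were 5.87% of all tested genes. With the study's further criteria (a change of over 1 log2 unit and a group mean above 20 CPM) 2 members remained, Tfe3 and Uvrag, against 4.46% of all tested genes. For 0 of the 40 did the FD libraries all lie outside the fed range (7.65% of all tested genes). The median log2 fold change was 0.089 over the 40 genes and -0.0232 over all tested genes, and 26 of the 40 (65%) had a positive value against 48.5% of all tested genes. Most of the 40 were measured closely enough to bound the change, since 26 (65%) had a 95% interval within 1 log2 unit of 0 on both sides (29.6% of all tested genes). For these 26 genes a change of 2-fold in either direction lay outside the interval.

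**Figure D2:**
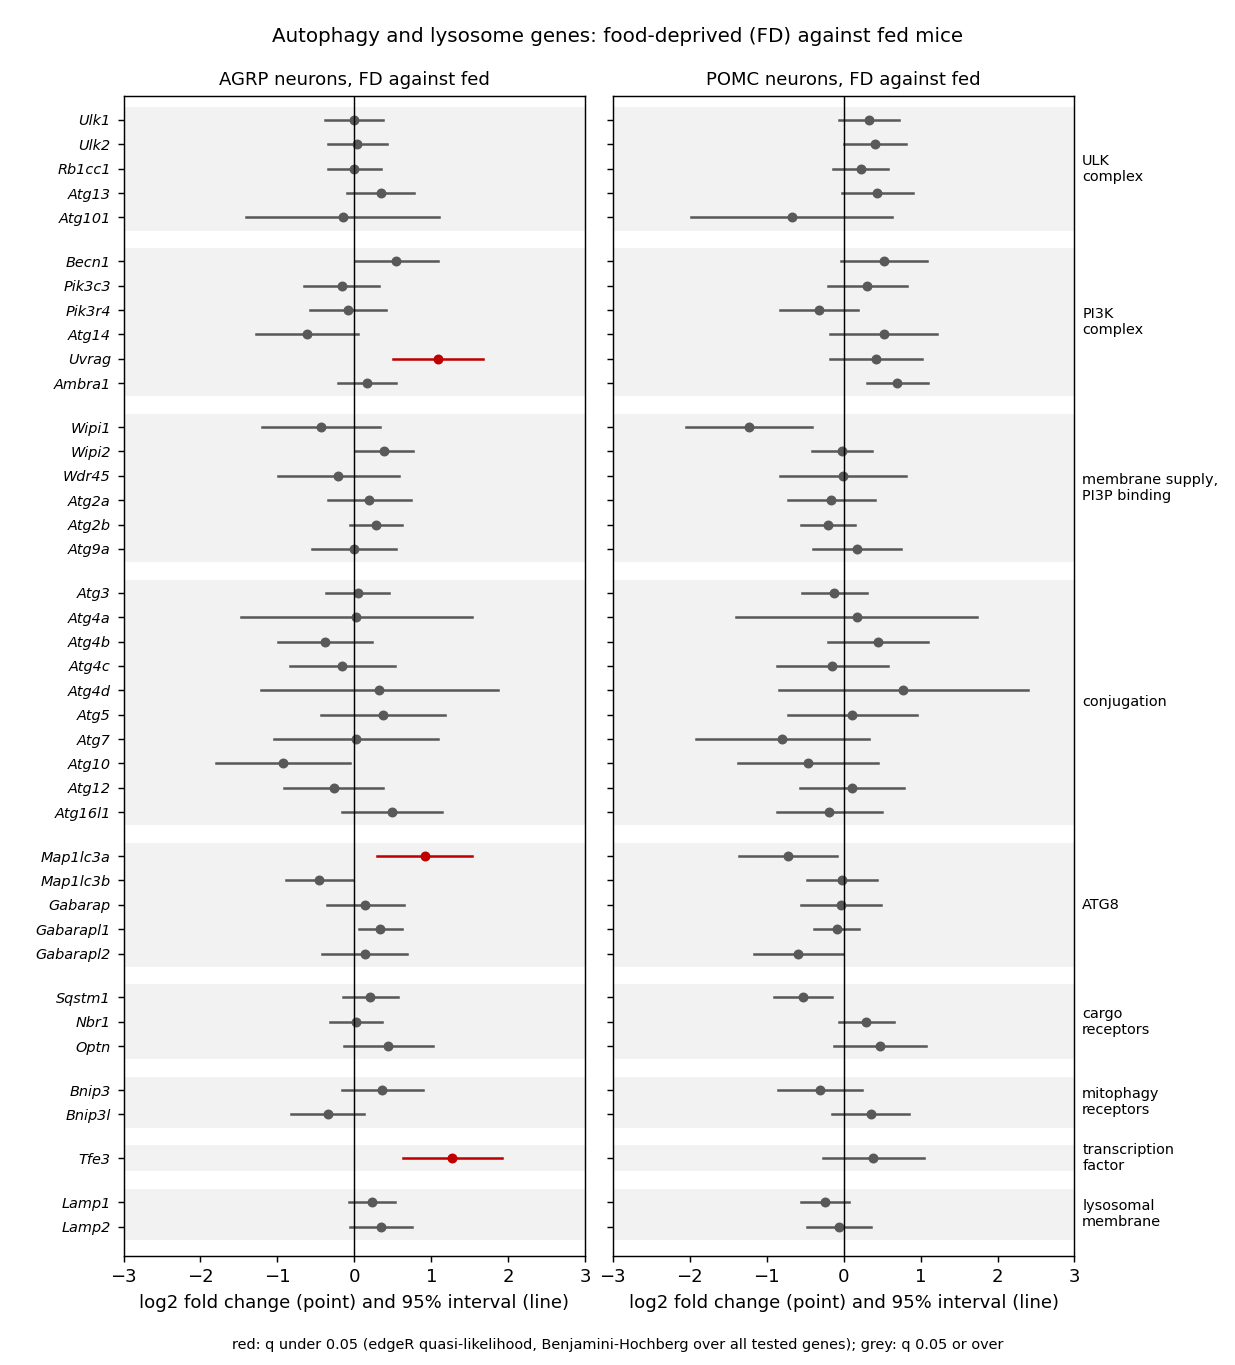
Log2 fold change with its 95% interval of the 40 tested genes, FD against fed mice, in AGRP neurons (left) and POMC neurons (right), grouped by role, with calls at q under 0.05 in red. Tfe3, Uvrag and Map1lc3a are the 3 red points in AGRP neurons, and POMC neurons have none.

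Tfe3 lies at chrX:7762657-7775202 (mm10, authors' gene table). In fed AGRP libraries it had 26.8, 23.6, 26.7, 16.0 and 30.9 normalized CPM, and in FD AGRP libraries 24.7 to 91.1 (median 62.6). The FD libraries exceeded all fed ones except replicate 4, which lay at 24.7 within the fed range. The log2 fold change was 1.27 ± 0.31 (SE, 2.42-fold higher, q = 0.00740), and it stayed under 0.05 with any 1 of the 21 libraries left out. Within spike-in sets the log2 ratio of mean normalized CPM was 1.14 (1 µl, 1 library each), 0.50 (10 µl) and 1.71 (volume by cell number), and with FD replicate 2 in the 1 µl set it was 1.295 (1 µl) and 1.74 (by cell number). In POMC neurons Tfe3 had a log2 fold change of 0.39 ± 0.32 (q = 0.689), and the difference between the cell types was 0.89 ± 0.44 (q = 0.263).

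Uvrag, at chr7:98886742-99141144, encodes a partner of Beclin 1 in the VPS34 complex that acts in endosome and autophagosome maturation. The fed AGRP libraries held 27.8, 11.4, 25.6, 29.4 and 28.1 normalized CPM and the FD libraries 29.2 to 63.8 (median 54.2). Of the FD libraries only replicate 1, at 29.2, fell within the fed range, just under the highest fed value. The log2 fold change was 1.09 ± 0.29 (2.13-fold, q = 0.0124), and it too stayed called with any 1 library left out (lowest 0.91). Within spike-in sets the log2 ratios were 1.20 (1 µl), 1.54 (10 µl) and 0.71 (by cell number), of which the last was 0.43 with FD replicate 2 in the 1 µl set. In POMC neurons the value was 0.42 ± 0.29 (q = 0.612), with a difference between cell types of 0.67 ± 0.41 (q = 0.382). An exon of Uvrag overlaps an antisense gene (Gm45187) in GENCODE M21, and counting without strand cannot tell reads in such an overlap apart.

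The other members of the VPS34 complex did not pass the test in AGRP neurons. Becn1, which encodes Beclin 1, the scaffold of the complex, had 0.55 ± 0.26 (q = 0.217), and Atg14, the partner that directs the complex to autophagosome formation, -0.61 ± 0.33 (q = 0.275). The kinase Pik3c3 had -0.17 and its regulatory subunit Pik3r4 -0.08. Ambra1, a Beclin 1 regulator, had 0.17. Of the 2 alternative partners of Beclin 1, Uvrag was thus called higher in FD AGRP neurons, and Atg14 was not called in either direction.

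Map1lc3a, at chr2:155276296-155278073, also passed. Its fed AGRP libraries held 36.4, 30.2, 29.2, 35.7 and 39.9 normalized CPM and its FD libraries 36.2 to 108.9 (median 53.1). Fed values were closely spaced, while 2 FD libraries (replicates 2 and 4) lay far above the others and replicate 1 within the fed range. The log2 fold change was 0.92 ± 0.30 (1.89-fold, q = 0.0497), and q remained under 0.05 in 6 of the 21 fits that left out 1 library (highest 0.160, without FD replicate 2). Within spike-in sets the log2 ratios were 0.50 (1 µl), 1.34 (10 µl) and 0.72 (by cell number). With FD replicate 2, the highest library, in the 1 µl set they were 1.14 (1 µl) and 0.03 (by cell number), so the ratio within these 2 sets rests on where that library is placed. Map1lc3b, its paralog and the LC3 gene most used as an autophagosome marker, had -0.45 ± 0.21 (q = 0.203), and Gabarapl1 0.34 ± 0.14 (q = 0.127). Gabarap and Gabarapl2 had 0.14 and 0.13.

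Of the initiation complex none passed. Values ran from -0.15 (Atg101, a bridging subunit) to 0.34 (Atg13), with the kinases Ulk1 and Ulk2 at 0.00 and 0.04 and the scaffold Rb1cc1 at 0.00. Among the 6 genes of membrane supply and PI3P binding the values ran from -0.43 (Wipi1) to 0.38 (Wipi2), with the lipid transfer genes Atg2a and Atg2b at 0.20 and 0.28 and the scramblase gene Atg9a at -0.01. The 10 conjugation genes lay between -0.93 (Atg10, the E2-like enzyme for ATG12) and 0.49 (Atg16l1, which places the conjugating complex on the membrane), with a lowest q of 0.186. The cargo receptors Sqstm1 (p62, 0.21 ± 0.18), Nbr1 (0.02 ± 0.17) and Optn (0.44 ± 0.28) did not pass, nor did the mitophagy receptors Bnip3 (0.36 ± 0.26) and Bnip3l (-0.35 ± 0.23). The lysosomal membrane genes Lamp1 and Lamp2 had 0.23 ± 0.15 and 0.34 ± 0.20 (lowest q of the 2, 0.324). Of the 6 genes with CACGTG in the promoter, none was called, with values of 0.23 (Lamp1), 0.04 (Atg3), -0.61 (Atg14), 0.38 (Atg5), 0.36 (Bnip3) and 0.02 (Atg7). With 10.3% of all tested genes called in this comparison, 6 genes are too few to set against that share.

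**Figure D3:**
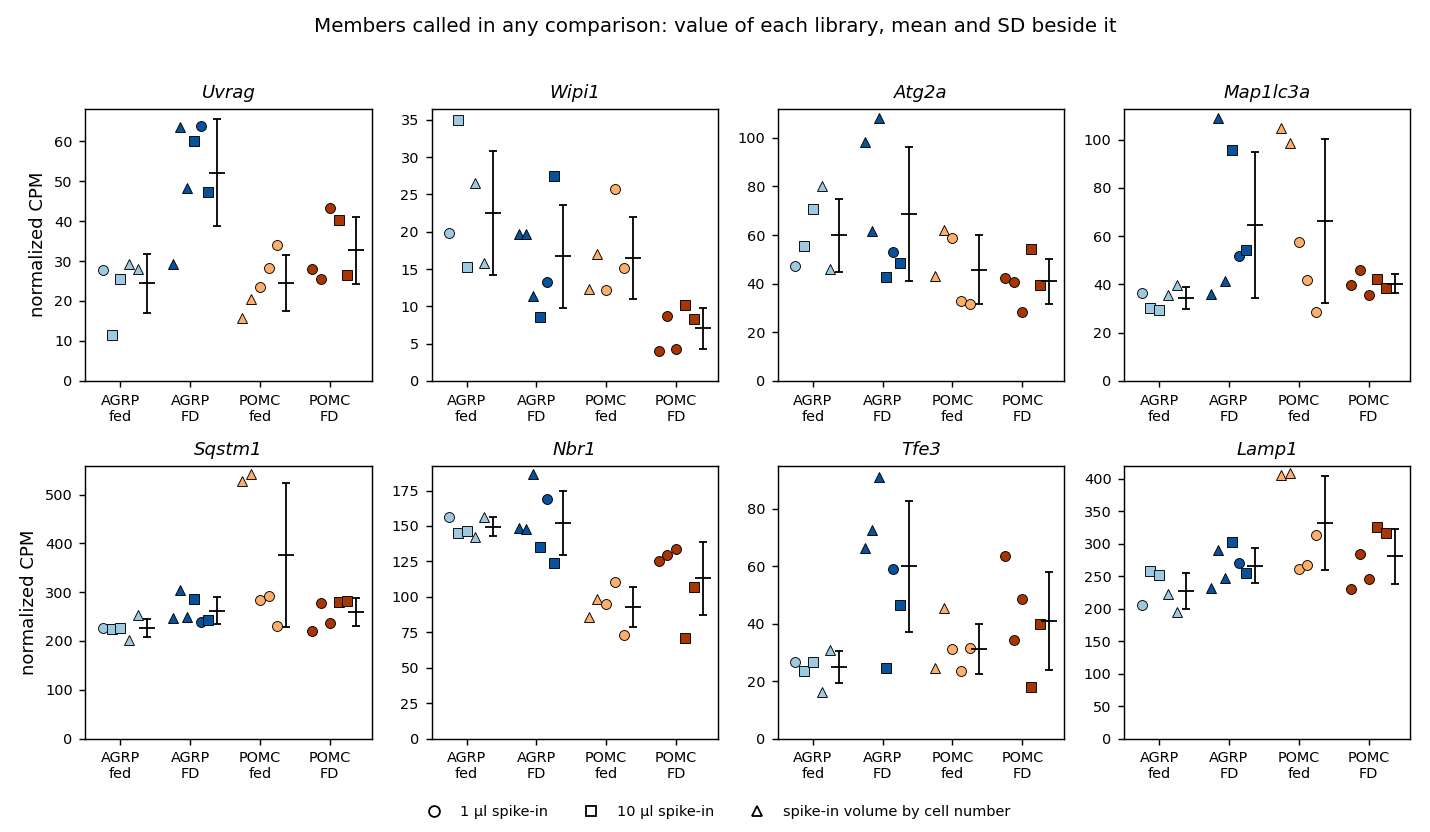
Normalized CPM of every library for the 8 genes called in any comparison, with the group mean and SD to the right of each group and the symbol giving the spike-in set. Most FD AGRP libraries lie above the fed ones for Tfe3 and Uvrag, and 2 fed POMC libraries (triangles) stand above the others for Sqstm1, Map1lc3a and Lamp1.

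In POMC neurons no gene of the 40 was called between FD and fed mice, where 0.375% of all tested genes were called. By DESeq2 1 gene (Ambra1) passed, by limma-voom 0, and 6 genes had an unadjusted p under 0.05 in edgeR (15% of the 40, against 12.2% of all tested genes). With the further criteria 0 passed (0.266% of all tested genes). The 95% interval lay within 1 log2 unit of 0 for 25 of the 40 (62.5%, against 33.5% of all tested genes). The median log2 fold change was -0.0125, against -0.024 over all tested genes. In this comparison the summed non-neuronal markers given above were higher in every FD than in every fed POMC library, with Cldn5, C1qa and Tmem119 at 0 in both groups, and of the 10 markers tested edgeR called 0, with 2 at an unadjusted p under 0.05, and DESeq2 and limma-voom also 0. The part of this shift in the POMC values and in the interaction was not tested. Ambra1 had 60.2, 75.9, 64.1, 47.4 and 57.6 normalized CPM in fed and 116, 105, 82.1, 94.6 and 95.7 in FD POMC libraries. These groups did not overlap (log2 fold change 0.69 ± 0.19, q = 0.0974). Wipi1, which binds PI3P on forming autophagosomes, had 12.4, 17.0, 12.2, 25.7 and 15.1 normalized CPM in fed and 3.94, 8.64, 4.32, 10.1 and 8.27 in FD POMC libraries. Its groups did not overlap either (-1.23 ± 0.40, q = 0.170), and groups of 2.35% of all tested genes did not overlap in this comparison. The largest values without a call on the side of fed mice after Wipi1 were those of Atg7 (-0.80 ± 0.55), Map1lc3a (-0.72 ± 0.31, q = 0.330) and Atg101 (-0.67 ± 0.64).

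The effect of food deprivation differed between the cell types for 1 gene of the 40, Map1lc3a, where 6.71% of all tested genes passed this interaction test and 4.58% did with the further criteria, which Map1lc3a also met. Its fed POMC libraries held 104.9, 98.4, 57.7, 41.8 and 28.7 normalized CPM and its FD POMC libraries 39.7, 45.8, 35.6, 42.0 and 38.3, so the FD values lay within the fed range. The difference of the 2 log2 fold changes was 1.64 ± 0.43 (3.11-fold, q = 0.0193). Without fed POMC replicates 1 and 2, which held the highest values, it was 1.00 (q = 0.179), and q was 0.0501 without replicate 2 alone. With the spike-in set as a block q was 0.0508, or 0.0322 with FD AGRP replicate 2 in the 1 µl set. Sqstm1 came next in q (0.74 ± 0.25, q = 0.0768). The interaction value of Uvrag and Tfe3 did not pass, so a difference between the cell types was not shown for these 2 genes.

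In fed mice 3 of the 40 genes (7.50%) differed between AGRP and POMC neurons, where 7.57% of all tested genes did. Nbr1, a receptor for ubiquitinated cargo, was higher in AGRP neurons (3.33% of all tested genes were), and Sqstm1 and Lamp1 were lower (4.24%). None of the 3 met the further criteria, which 4.01% of all tested genes did. Of the 10 non-neuronal markers tested, edgeR called 0 between the cell types, in fed and in FD mice. DESeq2 called 1 in fed and 2 in FD mice, and limma-voom called 1 in each. The part of these markers in the differences between cell types was not tested. Fed AGRP libraries held 156, 145, 147, 142 and 157 normalized CPM of Nbr1 and fed POMC libraries 85.8, 98.6, 94.9, 111 and 72.9. These groups did not overlap and the spread within AGRP neurons was narrow (log2 fold change 0.69 ± 0.18, 1.61-fold, q = 0.0104). Nbr1 stayed called with any 1 library left out and without fed POMC replicates 1 and 2 (0.69, q = 0.0468), and within the 1 µl and cell-number sets the log2 ratios were 0.75 and 0.70.

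Sqstm1 encodes p62, a receptor that is itself degraded by autophagy. It had 226, 224, 227, 203 and 253 normalized CPM in fed AGRP libraries and 528, 541, 284, 292 and 231 in fed POMC libraries. Fed POMC replicates 1 and 2 lay far above all other libraries, and replicate 5 within the AGRP range. The log2 fold change, AGRP against POMC, was -0.73 ± 0.18 (1.66-fold lower, q = 0.00971). Without those 2 libraries it was -0.25 (q = 0.443), and the log2 ratio was -0.25 within the 1 µl set and -1.23 within the cell-number set. Leaving out only replicate 1 or only replicate 2 of fed POMC also ended the call (q = 0.0532 and 0.0607).

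Lamp1 followed the same libraries. It had 206, 258, 251, 222 and 195 normalized CPM in fed AGRP libraries and 405, 408, 261, 266 and 314 in fed POMC libraries. The groups did not overlap, although the nearest libraries were only 258 and 261 (groups of 8.93% of all tested genes did not overlap). The log2 fold change was -0.55 ± 0.15 (1.46-fold lower, q = 0.0234), and without fed POMC replicates 1 and 2 it was -0.31 (q = 0.330). The call also ended in 5 of the 21 fits that left out 1 library, those without fed POMC replicate 1 or 2 (q = 0.0814 and 0.0923) and those without fed AGRP replicate 1, 4 or 5 (q = 0.0643, 0.0532 and 0.0746). Exons of Sqstm1 and Lamp1 overlap genes on the other strand (Mrnip and Grtp1), and reads within such an overlap cannot be told apart without strand. Further genes described here have such overlaps, among them Gabarapl1 and Map1lc3b.

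Fed POMC replicates 1 and 2 were the 2 fed POMC libraries whose spike-in volume was set by cell number. Over replicates 3 to 5 they were 2.36-fold higher for Map1lc3a, 1.99-fold for Sqstm1 and 1.45-fold for Lamp1, but 0.994-fold for Nbr1 and 0.640-fold for Uvrag. Both exceeded the other 3 libraries for 12 of the 40 genes (30%), which include Gabarap, Gabarapl1, Map1lc3b, Atg13 and Ulk1, and for 17.0% of all tested genes. In fed POMC mice the spike-in set and the age (postnatal day 51) go with these 2 libraries, so that their levels cannot be told apart from the set.

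In FD mice 2 of the 40 genes (5%) differed between the cell types, where 18.6% of all tested genes did. Both were higher in AGRP neurons, as were 9.28% of all tested genes, and 1 of them, Wipi1, met the further criteria (8.16%). FD AGRP libraries held 8.51 to 27.5 normalized CPM of Wipi1 (median 16.5) against the FD POMC values given above, whose highest was 10.1. Only 1 AGRP library (replicate 4) fell within the POMC range (log2 fold change 1.24 ± 0.39, 2.37-fold, q = 0.0232). The call ended without AGRP replicate 6 or POMC replicate 1 or 3 (q = 0.0689, 0.0622 and 0.0666), and within the 1 µl and 10 µl sets the log2 ratios were 1.24 (1.55 with FD AGRP replicate 2) and 0.97. In fed mice the value for Wipi1 was 0.45 ± 0.39 (q = 0.616).

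Atg2a, which encodes a lipid transfer protein that feeds the growing membrane, was the other. FD AGRP libraries held 42.7 to 108 normalized CPM (median 57.4) and FD POMC libraries 42.3, 40.6, 28.2, 54.2 and 39.5. Replicates 1, 2 and 3 of FD AGRP (98.4, 61.8 and 108) lay above every FD POMC library, and the other 3, at 42.7 to 53.0, within the POMC range. Replicates 1, 2 and 3 were the FD AGRP libraries of postnatal day 47, placed here in the cell-number set. FD POMC libraries were of postnatal day 54 to 56, in the 1 µl and 10 µl sets. For replicates 1, 2 and 3 the cell type thus cannot be told apart from age and set. The log2 fold change was 0.75 ± 0.27 (1.68-fold, q = 0.0496), q remained under 0.05 in 8 of the 21 fits that left out 1 library (highest 0.150, without FD AGRP replicate 3), and within sets the log2 ratio was 0.52 (1 µl, or 0.63 with FD AGRP replicate 2) and -0.04 (10 µl). Uvrag (0.67 ± 0.28, q = 0.101), Map1lc3a (0.68 ± 0.30, q = 0.118), Tfe3 (0.55 ± 0.31, q = 0.232) and Nbr1 (0.42 ± 0.17, q = 0.0785) did not pass. Sqstm1 and Lamp1 had 0.01 ± 0.17 and -0.08 ± 0.15 in FD mice.

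**Figure D4:**
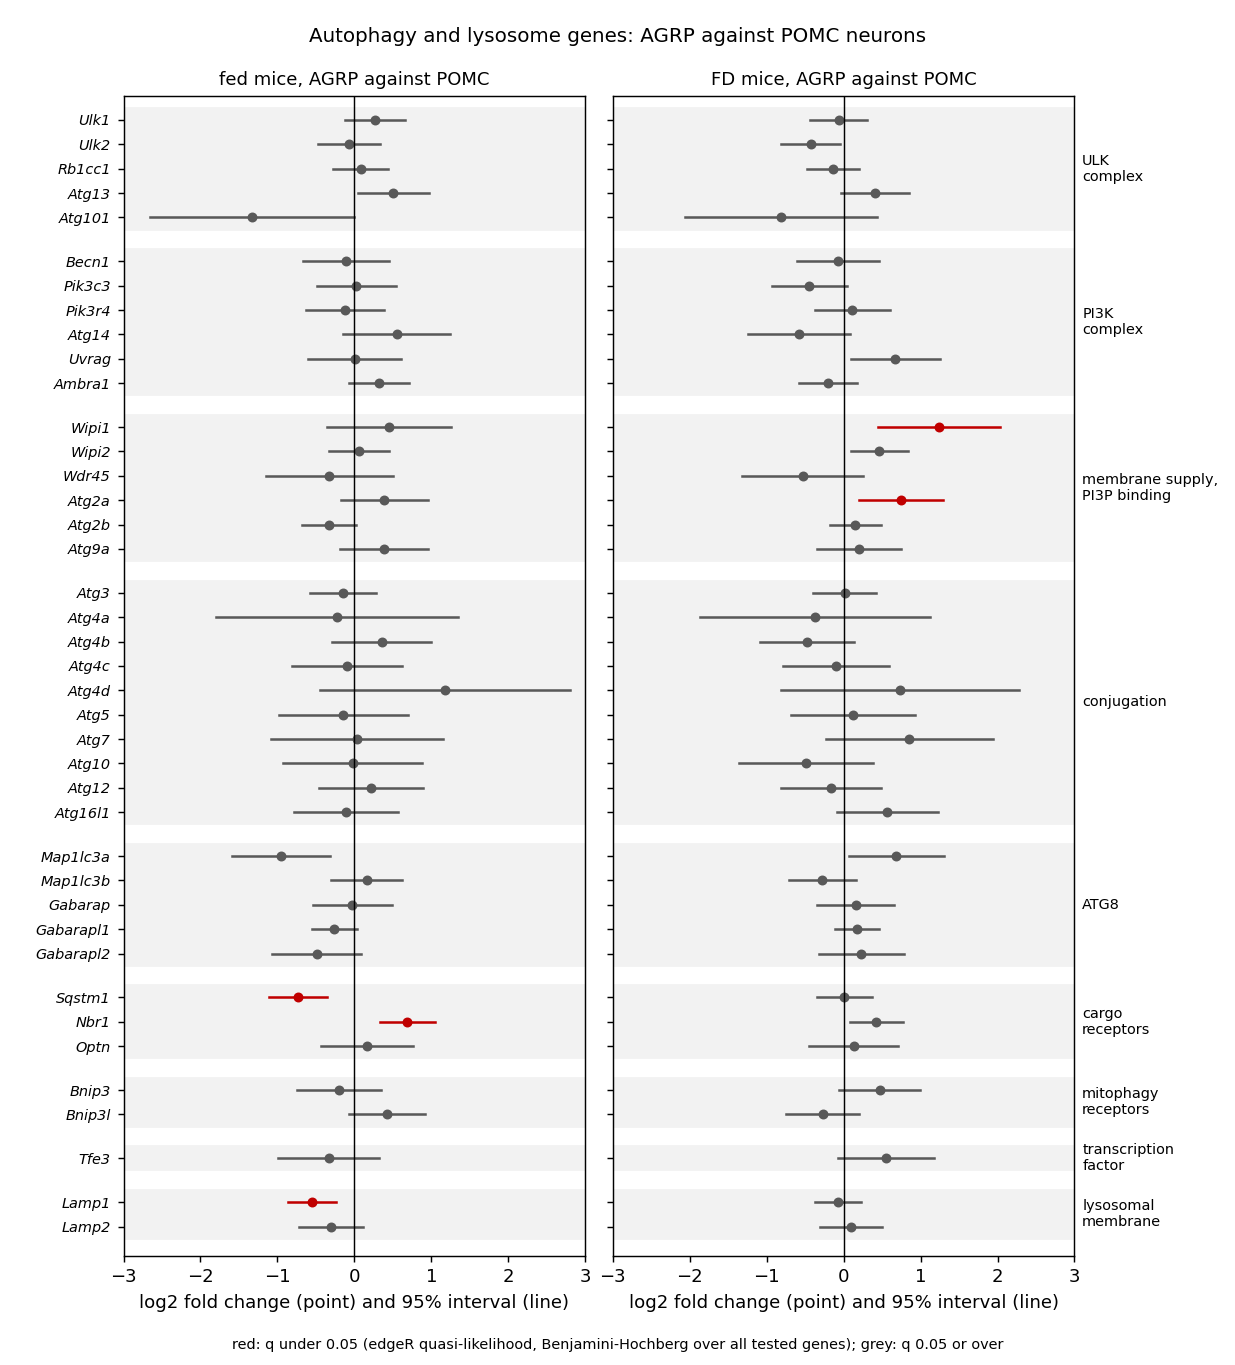
Log2 fold change with its 95% interval of the 40 tested genes, AGRP against POMC neurons, in fed mice (left) and FD mice (right), grouped by role, with calls at q under 0.05 in red. Nbr1 lies to the right and Sqstm1 and Lamp1 to the left in fed mice, and Wipi1 and Atg2a lie to the right in FD mice.

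A further 143 genes of lysosomal hydrolases, other lysosomal membrane proteins, the V-ATPase proton pump, mTORC1 control and other autophagy steps were examined as 5 lists, of which 139 genes were tested. The lists were chosen with earlier results of these data known, so their shares of calls are descriptive and not a test of the lists. In AGRP neurons of FD mice 13 of the 139 were higher and 7 lower (14.4% called, against 10.3% of all tested genes), and in POMC neurons 0 were called by edgeR, with 5 by DESeq2 and 0 by limma-voom. Of 34 hydrolases and activators 5 rose and 3 fell in AGRP neurons (23.5% called). Ctsd, the aspartic protease cathepsin D, rose (log2 fold change 1.02 ± 0.14, q = 1.02e-05), as did Ctsz, cathepsin Z (0.97 ± 0.31, q = 0.0405). Manba, beta-mannosidase (-1.43 ± 0.40, q = 0.0195), Lipa, the acid lipase (-0.99 ± 0.26, q = 0.0140), and Tpp1, a tripeptidyl peptidase (-0.74 ± 0.24, q = 0.0433), fell. The median of the list was -0.12, with called genes on both sides of 0.

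Of 18 V-ATPase subunits 2 rose in AGRP neurons, Atp6v1b2 (0.99 ± 0.14, q = 1.34e-05) and Atp6v0d1 (0.65 ± 0.19, q = 0.0266), and 0 fell. These 2 are 11.1% of the subunits, where 10.3% of all tested genes were called and 5.87% were called higher. None of 18 other lysosomal membrane and transport genes was called. Of 33 mTORC1 genes 3 rose and 1 fell (12.1% called). Fnip2, a partner of folliculin (1.26 ± 0.30, q = 0.00489), Ddit4, an mTORC1 inhibitor (1.16 ± 0.38, q = 0.0449), and Sec13, a GATOR2 and COPII subunit (0.92 ± 0.28, q = 0.0356), rose, and Deptor, another inhibitor, fell (-0.63 ± 0.19, q = 0.0269). Of 36 further autophagy genes 3 rose, Vmp1 (0.83 ± 0.20, q = 0.00704), which acts at the endoplasmic reticulum when autophagosomes form, the ATG8-binding Trp53inp2 (0.78 ± 0.19, q = 0.00651) and the cargo receptor Tax1bp1 (0.58 ± 0.15, q = 0.00971). Tex264, a receptor for endoplasmic reticulum (-1.99 ± 0.49, q = 0.00679), and the vacuolar fusion subunits Vps41 (-0.79 ± 0.20, q = 0.00879) and Vps39 (-0.53 ± 0.17, q = 0.0390) fell. Calls in both directions made up 16.7% of these 36 genes.

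Of these 20 genes, 8 also passed the interaction test for a difference in response between AGRP and POMC neurons. The 20 were picked by their change in AGRP neurons, which is a part of the interaction, so this choice raises the count. The share among all genes called in AGRP neurons is not given here. The difference was 1.25 ± 0.20 for Ctsd (q = 0.000145), 1.61 ± 0.27 for Trp53inp2 (q = 0.000284) and 1.04 ± 0.20 for Atp6v1b2 (q = 0.00110). It was -1.10 ± 0.24 for Vps39 (q = 0.00481) and -1.58 ± 0.38 for Lipa (q = 0.0105), and Sec13 and Fnip2 had 1.47 and 1.38 (q = 0.0253 and 0.0431). In fed mice 1 of the 139 genes was higher and 7 lower in AGRP than in POMC neurons (5.76%, against 7.57% of all tested genes), and in FD mice 12 were higher and 15 lower (19.4%, against 18.6%). The interaction test called 12 of the 139 (8.63%, against 6.71%), so these shares were near those of all tested genes. Without fed POMC replicates 1 and 2, 3 of the 139 were called in fed mice and 7 in the interaction, where all libraries gave 8 and 12.

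**Figure D5:**
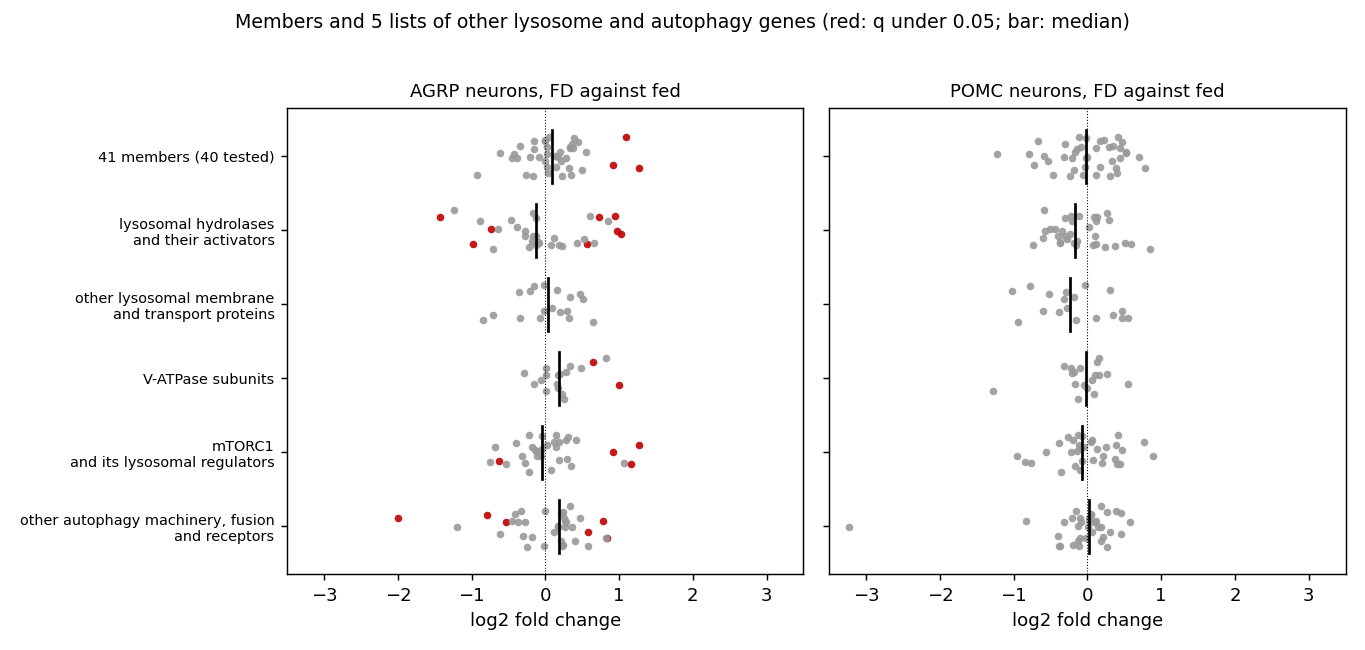
Log2 fold change of the genes described (top) and of 5 lists of other lysosome and autophagy genes, FD against fed mice, in AGRP neurons (left) and POMC neurons (right), with calls at q under 0.05 in red and the median of each list as a bar. In AGRP neurons the hydrolases and the other autophagy genes have red points on both sides of 0, and POMC neurons have none.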

How the data were processed

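The 21 libraries, grouped by the sample labels, each came from sorted neurons of 1 mouse. Per the labels and the study's methods, the authors trimmed reads with cutadapt 1.7.1, removed abundant sequences with Bowtie2 2.1.0, mapped the rest to mm10 with STAR 2.4.0i and made the deposited counts with HTSeq 0.6.1p1, unstranded, on 35266 Gencode genes. The authors derived the deposited TPM from these counts and summed exon length, and TPM were used here for levels between genes. The count table also held 92 spike-in and 5 summary entries, which were kept out of library sizes (reads without a gene, 24.2% to 52.1% of a library).

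Genes over 1 CPM in at least 3 libraries (16513) entered 1 edgeR 4.0.16 quasi-likelihood fit with 4 groups and TMM scaling (R 4.3.3), and Benjamini-Hochberg adjustment ran over all of them for each of 5 contrasts. SE is the absolute log2 fold change over the root of F, and 95% intervals use the t quantile of the fit. Alternatives were limma-voom (limma 3.58.1, the study's test), DESeq2 1.42.0, RLE scaling, no filter, replicate and spike-in set blocks, the POMC 1 µl set alone, ERCC scaling per sorted cell, stricter criteria (absolute log2 fold change over 1, mean over 20 CPM) and each library left out. The fit without fed POMC replicates 1 and 2 and the move of FD AGRP replicate 2 to the 1 µl set were added after the values were seen. On simulated data for AGRP neurons (16513 genes), edgeR recovered 57 of 100 changes of 2-fold and 96 of 100 of 4-fold with 5 false calls. The changed genes were drawn from those with a fed AGRP level over 20 CPM, so recovery at lower levels was not measured. Only 200 genes were changed, whereas 10.3% of all tested genes were called in the data, so recovery at that share was not measured either.

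Members and lists were chosen with earlier results of these data known. All members were accounted for, those called with values per library and, for the 5 lists, the 3 largest called rises and falls in AGRP neurons. The values of 1 list gene that this rule covers are not reported here. Older symbols matched 3 list genes. No 2 libraries were identical. Exon overlaps come from GENCODE M21 and promoters from RefSeq, and positions printed for genes are those of the authors' table. Proteins and splice isoforms were not analysed here.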

Additional observations from a re-analysis of the deposited data

Results flagged for a closer look

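Over 160 sets of values (40 genes in 4 groups) 6 held a library whose gap to its nearest neighbour was large against the range of the group by Dixon's criterion, and chance flags about 1 in 20. Uvrag had 11.4 normalized CPM in fed AGRP replicate 2, with 25.6 as the next value. Atg101 had 8.53 in the same library (next 4.22). In FD AGRP replicate 2 Atg2b had 282 (next 198) and Atg7 had 60.0 (next 17.2). Ulk1 had 115 in fed POMC replicate 2 (next 77.6), and Atg4b had 56.3 in FD POMC replicate 2 (next 37.9).

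The effect of food deprivation on Map1lc3a differed between the cell types by 1.64 on the log2 scale in the interaction test, and the values without fed POMC replicates 1 and 2 are given in the report.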

How the results depend on the processing

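Counts of calls are given in the order AGRP FD against fed, POMC FD against fed, AGRP against POMC fed, AGRP against POMC FD, and interaction. With all libraries 3, 0, 3, 2 and 1 of the 40 genes were called. Limma-voom called 2, 0, 3, 0 and 0, DESeq2 3, 1, 4, 2 and 1, RLE scaling 2, 0, 3, 1 and 1, and no count filter 3, 0, 4, 1 and 1. With the spike-in set as a block the counts were 3, 0, 3, 1 and 0, or 3, 0, 3, 1 and 1 with FD AGRP replicate 2 in the 1 µl set (added after the values were seen), with the POMC 1 µl set alone 3, 0, 1, 1 and 0, and without fed POMC replicates 1 and 2 (chosen after the values were seen) 3, 0, 1, 2 and 0. The criteria of fold and level gave 2, 0, 0, 1 and 1. Leaving out each library in turn gave 2 to 3, 0 to 0, 1 to 4, 0 to 3 and 0 to 2. ERCC scaling per sorted cell shifted all genes. Their median log2 change was -1.11 in POMC neurons, 1.10 between cell types in FD mice and 1.04 in the interaction. This scaling called 0 of the 40 in every comparison. It uses spike-in counts, labelled volume and cell number. Spike-in counts were 1152518 and 1812282 in the 10 µl POMC libraries, all FD. They were 83690 and 102689 in the cell-number POMC libraries (2.16 and 2.04 µl), all fed, and 94095 to 279865 in the 1 µl POMC libraries. These 3 shifts thus cannot be told apart from the spike-in set. Limma-voom put the median log2 change of all genes at -0.13 in AGRP neurons and -0.10 in the interaction. None of the 8 genes named as called changed direction under these settings, although the ratio of Atg2a within the 10 µl set had the other sign. The cause of these differences was not tested.

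Of the 139 further genes 20, 0, 8, 27 and 12 were called. The count fell to 0, 0, 0, 3 and 0 with ERCC scaling. In POMC neurons DESeq2 called 5 and no count filter 1. In fed mice between cell types the spike-in set block gave 14 (13 with FD AGRP replicate 2 in the 1 µl set), and the 1 µl set alone and the fit without fed POMC replicates 1 and 2 gave 3 each, with 5 and 7 in the interaction.

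The replicate numbers are the labels' own, but same-numbered libraries are different mice, and their deviations from the group means correlated at -0.104 to 0.0679 over 30 pairs, with 0 pairs over 0.1. Of 21 libraries 1 correlated best with a library of its own number. With the replicate block 2, 0, 3, 0 and 1 of the 40 genes were called, and Map1lc3a in AGRP neurons (q = 0.0856), Wipi1 (q = 0.0556) and Atg2a (q = 0.0633) in FD mice lay over 0.05. A gene needs a larger change at low depth to be called, and the intervals of Atg4a, Atg4d, Atg101 and Atg7 were the widest of the 40 in AGRP neurons.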
